A study of Mus musculus with 2 samples.

Results

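The 10 genes described here carry the MHC class I presentation pathway of liver macrophages. They were taken by name, by a rule that uses no measured value, and all 10 were found among the 22322 genes of the table and measured at 1 FPKM or more. FPKM is the number of fragments per kilobase of gene scaled to the size of the library, so levels of different genes can be compared. The genes are the classical heavy chains H2-K1 and H2-D1, the nonclassical heavy chains H2-T23 and H2-M3, the light chain B2m, the peptide transporter subunits Tap1 and Tap2, the loading factor Tapbp, the trimming enzyme Erap1 and the transactivator Nlrc5.

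MHC class I molecules display peptides from inside the cell to CD8+ T cells. Proteasomes cut proteins into peptides, the TAP1/TAP2 transporter moves these into the endoplasmic reticulum (ER), ERAP1 shortens them, and tapasin (Tapbp) holds the empty heavy chain and B2m next to the transporter until a peptide binds. Interferon γ (IFN-γ) raises most of these genes, in part through IRF1 and NLRC5, of which NLRC5 acts on an enhanceosome at class I promoters. Macrophages use the pathway for their own proteins and for material taken up from other cells, which is called cross-presentation.

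The data comprised 1 library of WT and 1 library of FABP7 KO liver macrophages, both from male C57BL/6 mice of 6 to 8 weeks that had received 500000 MC38 colon carcinoma cells in 100 µl by intrasplenic injection. Macrophages were purified from the metastatic livers on day 10 by F4/80 positive selection. The knockout is systemic, so every cell type of the KO mice lacks FABP7, and 1 field of the KO sample's labels calls it a knockdown. The number of mice per library is not stated in the labels or the methods. MC38 comes from C57BL/6, so tumor and host carry the same H2 haplotype and their class I reads cannot be told apart by allele. With 1 library per genotype, no difference below has a replicate check or a p-value. In bulk RNA, fewer cells of a type and less RNA per cell cannot be told apart.

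Fabp7 stood at 354 FPKM (WT) against 0.69 FPKM (KO). The macrophage markers were high in both, with 11 of 11 measured and summed levels of 13084 and 16872 FPKM, and the 8 Kupffer cell markers summed to 14802 and 15865 FPKM. The step between low FPKM values gave an estimate of about 17940000 fragments for the WT and 17860000 for the KO library, so precision was nearly equal. At this depth the members rested on an estimated 1247 to 84238 fragments each. Intervals given below are 95% intervals of counting error, which leave out any difference between mice. Each ratio is written as log2 of (KO + 1 FPKM) divided by (WT + 1 FPKM), and a 2-fold difference (1 on the log2 scale) served as a rule of size.

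Windows of 200 bases before the annotated start are shown for 4 members, since the class I genes are known for shared promoter elements and these 4 span the heavy chains, the light chain and the member with the lowest ratio. Sequences are from RefSeq (GRCm38.p6), in which 8 of the 10 members had an entry, and the build of the deposited values is not known. Capitals mark matches on either strand to an NF-κB site (GGGATTCCC), the core bound by interferon regulatory factors (AANNGAAA), the X2 core (TGACG) and the Y box core (CCAAT, read as ATTGG on the other strand).
H2-K1, chr17:34000348-34000547, minus strand: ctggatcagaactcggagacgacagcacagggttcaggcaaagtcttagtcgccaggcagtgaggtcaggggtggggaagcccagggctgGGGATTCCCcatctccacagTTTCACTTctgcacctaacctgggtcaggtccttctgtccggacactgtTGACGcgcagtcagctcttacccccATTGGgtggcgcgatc
H2-D1, chr17:35262894-35263093, plus strand: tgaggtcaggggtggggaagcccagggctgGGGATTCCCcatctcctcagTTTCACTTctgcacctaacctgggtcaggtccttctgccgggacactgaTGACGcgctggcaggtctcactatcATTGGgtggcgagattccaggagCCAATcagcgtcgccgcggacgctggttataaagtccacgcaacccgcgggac
B2m, chr2:122147487-122147686, plus strand: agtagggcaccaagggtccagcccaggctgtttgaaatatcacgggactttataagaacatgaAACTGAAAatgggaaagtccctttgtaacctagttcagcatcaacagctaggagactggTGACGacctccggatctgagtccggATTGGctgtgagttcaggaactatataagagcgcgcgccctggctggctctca
Tap1, chr17:34187356-34187555, plus strand: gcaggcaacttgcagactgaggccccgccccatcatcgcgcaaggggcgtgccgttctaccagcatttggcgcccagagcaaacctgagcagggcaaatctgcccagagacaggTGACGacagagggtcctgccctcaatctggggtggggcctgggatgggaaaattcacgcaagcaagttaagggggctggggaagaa
H2-K1 has a second annotated start, and the window of the upstream one is shown.

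The windows of H2-K1 and H2-D1 held the NF-κB site, the interferon core, the X2 core and the Y box core in the same order. That exact sequence was present in 70 of 32851 RefSeq promoter windows of this length (0.213%). It was chosen with the windows in view, so its presence in H2-K1 and H2-D1 was fixed beforehand. The share leaves out NF-κB sites of any other spelling. The X2 core was found in 5 of the 8 members (B2m, H2-D1, H2-K1, H2-M3 and Tap1) and in 15.7% of all windows, and the Y box core in 6 of 8 and in 29.3%. The interferon core stood in 5 of 8 (B2m, H2-D1, H2-K1, H2-M3 and H2-T23) and 17.0% of all windows. These cores were also chosen with the promoter sequences in view, so the counts among members are no test of enrichment. The Tap1 window held the X2 core alone. These are matches of letters and not measured binding sites.

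Both classical heavy chains were among the most abundant transcripts of liver macrophages, and H2-D1 was nearly level between the genotypes. H2-D1 (ENSMUSG00000073411), the H-2D heavy chain, stood at 1713 FPKM (WT) against 1684 FPKM (KO), ranks 28 and 32 of all genes. Its log2 ratio was -0.02 (counting interval -0.04 to -0.01). H2-K1 (ENSMUSG00000061232), the H-2K heavy chain, stood at 1598 and 1358 FPKM, ranks 32 and 36, with a log2 ratio of -0.24. The log2 ratios of these chains differed from each other by more than their counting intervals, which leave out any difference between mice. H2-D1 exceeded H2-K1 by a factor of 1.07 (WT) and 1.24 (KO), a comparison inside each library that no scaling of a library can alter. It does depend on the gene lengths behind the FPKM values, which are not stated. With GENCODE exon lengths, the WT estimate was 79254 fragments for H2-D1 and 84238 for H2-K1.

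The nonclassical heavy chains were lower in level and also had ratios below 0 as deposited, of which that of H2-M3 turned above 0 under housekeeping scaling. H2-T23 (ENSMUSG00000067212), which encodes Qa-1, the ligand of the inhibitory receptor CD94/NKG2A, was at 529 FPKM (WT) against 429 FPKM (KO), with a log2 ratio of -0.30. H2-M3 (ENSMUSG00000016206), which presents N-formylated peptides of bacteria and mitochondria, was at 55.6 and 48.6 FPKM, with a log2 ratio of -0.19. H2-M3 rested on the fewest fragments of the members, and its counting interval went from -0.30 to -0.08. Heavy chains resemble each other, so reads could be assigned to the wrong chain. Of all 75-base windows in the longest coding transcript (GENCODE M21), 1.55% of those of H2-K1, 6.90% of those of H2-D1, 13.1% of those of H2-T23 and 0% of those of H2-M3 occurred without mismatch in a transcript of another gene. Neither the authors' counting of such reads nor the read length is stated. The sum of the 4 chains was 3896 FPKM (WT) against 3520 FPKM (KO), a log2 ratio of -0.15 that turned to 0.075 under housekeeping scaling. A read moved among the 4 chains stays in this sum with a changed weight, since FPKM divides by the length of each chain. Reads shared with other genes are not kept, and such sharing made up most of the shared windows of H2-D1 (5.42% with H2-Q1).

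B2m (ENSMUSG00000060802), the light chain of MHC class I molecules, was the highest of the 10 genes. It stood at 3855 FPKM (WT) against 3389 FPKM (KO), ranks 7 and 11 of all genes and 0.833% and 0.756% of the summed FPKM. The log2 ratio was -0.19. The 4 heavy chains together reached 1.01 times the level of B2m in the WT and 1.04 times in the KO library, near 1 to 1 per length in both. This level too depends on the gene lengths used, which are not stated. With the other listed class I heavy chains added, the ratio to B2m was 1.15 (WT) and 1.14 (KO). Against Actb, which encodes β-actin, B2m was at 1.34 and 1.35.

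Tap1 showed the lowest ratio of the members, and Tap2 was less apart. Tap1 (ENSMUSG00000037321) stood at 127 FPKM (WT) against 76.9 FPKM (KO), 0.606 times the WT level, with a log2 ratio of -0.71 (counting interval -0.76 to -0.67). Among all measured genes, 5.18% had a lower ratio than Tap1. Tap2 (ENSMUSG00000024339), the other subunit of the transporter, was the lowest of the 10 genes in level, at 32.0 and 25.2 FPKM, with a log2 ratio of -0.33. Tap1 was 3.96 times as high as Tap2 in the WT and 3.05 times in the KO library. Relative to B2m, Tap1 was at 0.0329 (WT) and 0.0227 (KO). Tap1 shares a divergent promoter region with the immunoproteasome gene Psmb9, which was at 76.5 and 51.0 FPKM (log2 ratio -0.58).

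**Figure D1:**
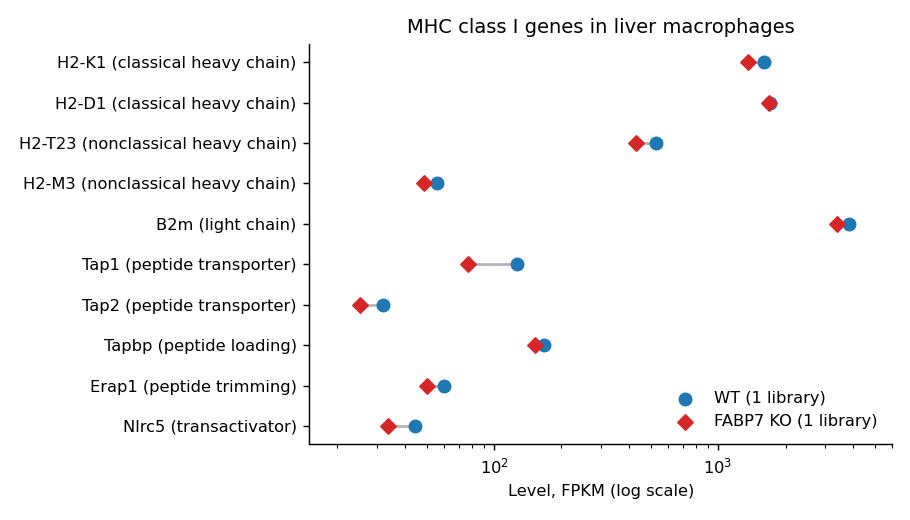
Level of each MHC class I gene in FPKM (x axis, log scale) in the WT library (blue circles) and the FABP7 KO library (red diamonds), 1 library each, with a grey line joining the pair. With the values as deposited, all red diamonds lie left of their blue circle, by the most for Tap1 (127 against 76.9 FPKM) and by the least for H2-D1 (1713 against 1684 FPKM).

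The loading and trimming factors differed little between the libraries. Tapbp (ENSMUSG00000024308), which encodes tapasin, was at 167 FPKM (WT) against 153 FPKM (KO), with a log2 ratio of -0.13. Erap1 (ENSMUSG00000021583), the ER aminopeptidase, was at 60.1 and 50.4 FPKM, with a log2 ratio of -0.25. Tap1 relative to Tapbp was at 0.757 (WT) and 0.502 (KO), and Erap1 relative to Tapbp at 0.359 and 0.329. The transporter gene Tap1 was thus further below WT than its partner in the loading complex within the same libraries.

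Nlrc5 (ENSMUSG00000074151), the transactivator of class I promoters, had the second lowest ratio. It stood at 44.4 FPKM (WT) against 33.6 FPKM (KO), a log2 ratio of -0.39 (counting interval -0.44 to -0.34). Rfx5, Rfxank and Rfxap, the RFX subunits with which NLRC5 works at the X box, were at 7.33 and 7.29, 4.86 and 7.03, and 2.37 and 4.09 FPKM.

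Together, the 10 members had a median log2 ratio of -0.24, against 0.0036 for all 10770 measured genes. All 10 were below 0 as deposited, but H2-D1 turned above 0 when the KO library was scaled by genes at 10 FPKM or more, and H2-D1, H2-M3, B2m and Tapbp did so when it was scaled by housekeeping genes. None of the 10 reached a 2-fold difference, which 5.16% of all genes did (2.21% higher, 2.95% lower). At 1.5-fold, 1 of the 10, Tap1, was lower, where 7.37% of all genes were lower and 8.02% higher. Under housekeeping scaling none of the 10 passed 1.5-fold, and under scaling by macrophage markers 2 did, Tap1 (-0.96) and Nlrc5 (-0.63). The share of all genes past 1.5-fold was not counted under these scalings, which moved the median of all genes to 0.20 and -0.22. As deposited, a ratio below 0 was found for 49.5% of all genes. The same held for 59.8% of the 1606 genes at 50 FPKM or more, whose median was -0.10. Of the members, 8 reached 50 FPKM, and their median was -0.21. Among genes at that level, 2.86% differed 2-fold (0.934% higher, 1.93% lower) against none of these 8, and 8.16% were 1.5-fold lower (4.11% higher) against 1 of these 8, Tap1. Without the 4 heavy chains the median of the other 6 was -0.29.

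**Figure D2:**
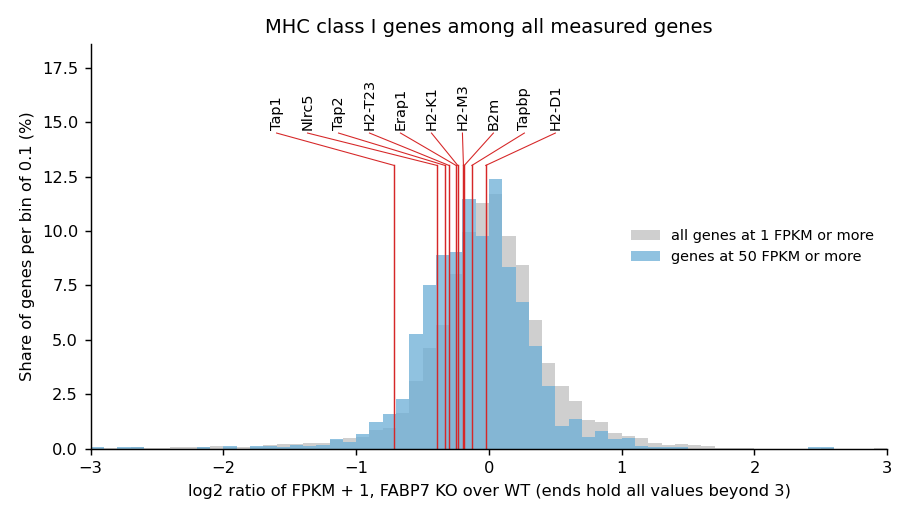
Share of genes (y axis, percent per bin of 0.1) by ratio of KO to WT, as log2 of FPKM + 1 (x axis), for all 10770 genes at 1 FPKM or more (grey) and for the 1606 genes at 50 FPKM or more (blue), with a red line at each MHC class I gene. The red lines of 9 genes lie between -0.39 and -0.02, and that of Tap1 stands apart at -0.71.

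The sign of several members depended on the scaling. The median of the KO over WT ratio was 1.19 for 11 macrophage markers and 0.858 for 10 housekeeping genes, so these references lie on opposite sides of 1. Scaled by the macrophage markers, the median of the members was -0.48 and that of all genes -0.22. Scaled by the housekeeping genes, these medians were -0.022 and 0.20. One factor moves all genes of a library alike, so the distance between these medians (-0.25 as deposited) and the order of the members are set by construction apart from the added 1 FPKM. Tap1 was below 0 under each of the 4 scalings, from -0.96 to -0.50. The housekeeping genes themselves ranged from -0.88 (Pgk1) to 0.03 (Ywhaz).

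**Figure D3:**
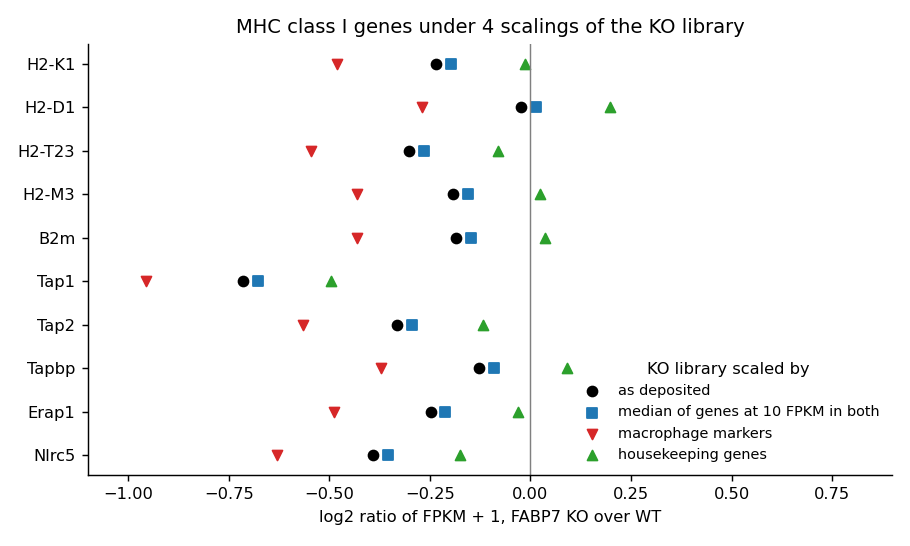
Ratio of KO to WT, as log2 of FPKM + 1 (x axis), of the 10 MHC class I genes (rows) under 4 scalings of the KO library (symbols). The symbols of each gene keep the same spacing by construction. H2-D1, H2-M3, B2m and Tapbp lie on both sides of 0. The other genes, with Tap1 furthest left, stay left of 0 under all 4 scalings.

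Other heavy chains of the H2 complex showed larger differences than the members. Of 18 listed, 16 were matched and 7 measured, with 5 below 0 and 2 above 0 under each scaling and a median log2 ratio of -0.56. The Qa-2 chains H2-Q6 and H2-Q7 were the 2 that passed the 2-fold rule, at 71.8 and 31.3 FPKM and at 131 and 63.6 FPKM, with log2 ratios of -1.17 and -1.03. Near copies make their split uncertain, since 17.9% and 21.7% of their 75-base windows occurred in other genes, mostly in each other. Their sum was 202 FPKM (WT) against 94.9 FPKM (KO). H2-T22 was at 147 and 87.1 FPKM, with 26.1% of its windows shared, and H2-Q4 at 126 and 85.2 FPKM. H2-T24 was at 51.9 and 63.5 FPKM, with a log2 ratio of 0.29. H2-Q10, a secreted chain made by hepatocytes, was at 2.66 and 6.01 FPKM, and the 10 hepatocyte markers, all above 0, summed to 276 and 526 FPKM. Hepatocyte RNA as a part of the H2-Q10 value was not tested.

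Most genes that supply peptides to the transporter also had ratios below 0 as deposited. All 5 immunoproteasome and PA28 genes were below 0 under each scaling, with a median log2 ratio of -0.58, and 2 of them were at least 1.5-fold lower. Psmb8, a catalytic subunit induced by IFN-γ, was at 229 FPKM (WT) against 145 FPKM (KO), and Psme2, a subunit of the PA28 activator, at 179 and 113 FPKM. The 3 constitutive catalytic subunits, which Psmb8, Psmb9 and Psmb10 replace, were also below 0, with a median of -0.41. Of these 3, 1 was above 0 under housekeeping scaling. Psmb8 relative to Psmb5 was at 4.61 (WT) and 3.40 (KO), whereas Psmb10 relative to Psmb7 was at 1.20 and 1.33. Of 7 peptidases, 5 were below 0, with Lap3 at 54.5 and 33.5 FPKM (log2 ratio -0.68) and Tpp2 at 63.6 and 66.1 FPKM. Under housekeeping scaling 3 of the 7 were below 0.

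Among 8 ER chaperones, 7 were below 0 and none passed 1.5-fold, with a median log2 ratio of -0.23, close to that of the members. Pdia3, the oxidoreductase of the loading complex, was at 445 and 304 FPKM (-0.55), and Calr, the lectin chaperone calreticulin, at 552 and 442 FPKM (-0.32). Of the 8, 4 were below 0 under housekeeping scaling.

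Genes of the interferon pathway around the members had ratios on both sides of 0. Of 16 transcription factors of class I promoters, 8 were above and 8 below 0, and none reached 2-fold. Irf2 was at 102 FPKM (WT) against 74.8 FPKM (KO) (-0.44) and Irf1 at 105 and 113 FPKM (0.10). Of 9 measured interferon receptors, kinases and feedback inhibitors, 8 were above 0, with a median of 0.25, or 5 of 9 above 0 under scaling by macrophage markers. Ifngr1, the ligand-binding chain of the IFN-γ receptor, was at 194 and 243 FPKM, and Socs3 at 2.94 and 6.30 FPKM (0.89). Of 21 interferon-stimulated genes, 14 were below 0 and 3 of these by 1.5-fold or more, and the median was -0.11, turning to 0.11 under housekeeping scaling. Gbp4 and Gbp5, with the lowest ratios of the list, were at 104 and 51.6 FPKM (-0.99) and at 68.0 and 38.3 FPKM (-0.81). Of the list, 7 genes were above 0. The highest were Cxcl9 at 12.8 and 16.9 FPKM (0.38) and Cxcl10 at 42.3 and 51.15 FPKM (0.27). Irf7, the most abundant of the list, was at 774 and 755 FPKM, and Ifit3 at 250 and 217 FPKM.

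**Figure D4:**
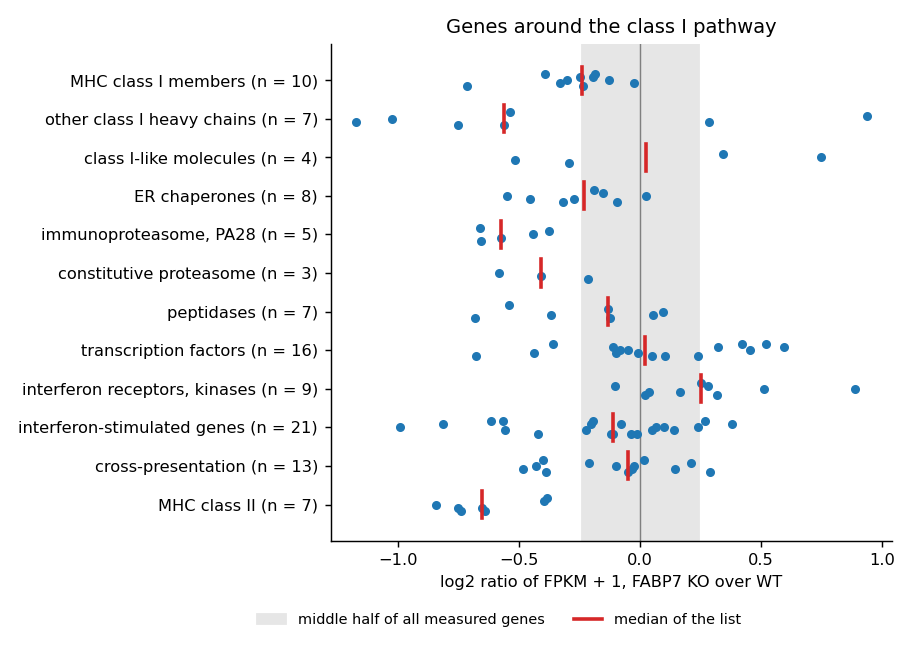
Ratio of KO to WT, as log2 of FPKM + 1 (x axis), of each measured gene (points) in the MHC class I members and 11 lists around them (rows). Red bars mark list medians, next to the range between the quartiles of all measured genes (grey band). The medians of the other heavy chains (-0.56), the immunoproteasome (-0.58), the constitutive proteasome (-0.41) and MHC class II (-0.65) lie left of the band, that of the interferon receptors and kinases (0.25) lies just right of it, and that of the members (-0.24) lies at its left edge.

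The median of MHC class II lay further from 0 than that of the 10 class I members, while no class II gene was as low as the class I chains H2-Q6 and H2-Q7. All 7 class II genes were below 0 under each scaling, with a median log2 ratio of -0.65, 5 of them at least 1.5-fold lower and none 2-fold. The chains H2-Aa, H2-Ab1 and H2-Eb1 summed to 2429 FPKM (WT) against 1486 FPKM (KO). The 4 class I heavy chains were therefore 1.60 times as high as these class II chains in the WT and 2.37 times in the KO library. Ciita, the class II counterpart of Nlrc5, was at 11.2 and 6.73 FPKM (-0.65).

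Class I-like molecules that pair with B2m had ratios on both sides of 0. Of 5 listed, 4 were measured, 2 above and 2 below 0. Fcgrt, the neonatal Fc receptor that recycles IgG and albumin, was at 182 FPKM (WT) against 306 FPKM (KO) (0.75), and Hfe, a regulator of iron uptake, at 130 and 165 FPKM (0.34). Cd1d1, which presents lipids to NKT cells, was at 65.0 and 52.8 FPKM (-0.30), and Mr1, which presents vitamin B metabolites to MAIT cells, at 14.0 and 9.47 FPKM (-0.52). As deposited, B2m was thus below WT while 2 of its partners were above it, and under housekeeping scaling B2m too was above 0 (0.036).

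Nearly all nucleated cells are known to make class I, and RNA of cells other than macrophages was present. As deposited, markers of other cells were higher in the KO library in 10 of 10 endothelial genes (summed levels 162 and 297 FPKM) and 6 of 6 measured neutrophil genes (37.3 and 102 FPKM over all 9 listed). They were also higher in 4 of 4 measured B cell genes (13.1 and 31.6 FPKM over all 6 listed), 4 of 4 measured T cell genes (5.77 and 9.11 FPKM over 8), 4 of 4 measured stellate genes (17.8 and 49.2 FPKM over 7) and 2 of 2 measured erythroid genes (17.4 and 43.1 FPKM over 4). Dendritic cell genes were higher in 3 of 4 measured (30.3 and 48.2 FPKM over 8). Of 6 measured monocyte genes, 4 were lower, and the list summed to 948 and 456 FPKM, nearly all of it Plac8 at 908 and 427 FPKM. NK cell genes were lower in 2 of 2 measured (8.49 and 5.59 FPKM over 7). All 10 cell division genes were at least 2-fold lower, with summed levels of 619 and 175 FPKM. The epithelial markers, which carcinoma cells express, summed to 6.76 and 6.54 FPKM over 6 genes, with Epcam listed at 0 in the WT and at 0.13 FPKM in the KO library. The part of these cells in the levels of the class I genes was not tested.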

How the data were processed

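The authors deposited FPKM values with 2 decimals for 1 WT and 1 FABP7 KO library, in 1 joint table and 2 single tables whose values are the same for all 22322 genes. Bowtie2 2.2.8 and TopHat2 2.1.1 are named in the submitters' processing notes, while build, annotation, counter and filters were not given in the sources used here. Symbols came from GENCODE M21 for 22267 IDs (highest mean where symbols repeat). One listed gene, Nrdc, was matched through a RefSeq synonym.

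Log2 ratios used a pseudocount of 1 FPKM and genes that reached 1 FPKM in either library. Depth came from the step of low values times GENCODE exon length. Of 175 such values per library, 80.0% (WT) and 82.3% (KO) lay within 0.15 of a whole fragment, where chance gives 30%. The ratio step was tested on simulated data. Scalings divided the KO library by the median KO over WT ratio of 5231 genes that reached 10 FPKM in both libraries, of macrophage markers or of housekeeping genes. Members, 28 gene lists and alternatives were chosen with earlier results of these data known. Text names all members and, per list, some of the genes with the largest ratios or highest means. Others were chosen after their values were seen, as partners of a member or to show ratios above 0. One gene of the transcription factor list is not reported here. Motifs were chosen with the promoter sequences in view. Scripts ran in Python 3.11.15 with NumPy 2.4.6, pandas 2.3.3, SciPy 1.17.1 and Matplotlib 3.10.9.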

Additional observations from a re-analysis of the deposited data

How the results depend on the processing

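No paired analysis was possible because each genotype has 1 library, and leaving out a library was not possible either. Scaling the KO library by housekeeping genes turned 4 members above 0, H2-D1 (0.20), H2-M3 (0.025), B2m (0.036) and Tapbp (0.091), and with them the log2 ratio of the summed heavy chains (from -0.15 to 0.075), and brought the median of the members from -0.24 to -0.022. Scaling by genes at 10 FPKM or more in both libraries turned H2-D1 above 0 (0.014) and gave -0.11 for the heavy chain sum. Scaling by macrophage markers gave -0.48 for the median and -0.39 for the sum. The median was -0.29 without the 4 heavy chains, and the sum was -0.20 over the 20 class I heavy chains that were listed and matched. No member passed 2-fold under any scaling, pseudocount or floor run. As deposited 1 passed 1.5-fold (Tap1), against 0 under housekeeping scaling and 2 under scaling by macrophage markers. Of all genes as deposited, 5.16% passed 2-fold, 7.37% were 1.5-fold lower and 8.02% were 1.5-fold higher. These shares were not counted under the other scalings. With a pseudocount of 0.1 all 10 members stayed below 0, from -0.72 to -0.02. Without a floor, or with one of 5 or 50 FPKM, the median lay between -0.24 and -0.21. The shifts under scaling follow from the scaling factors themselves. Counting error is small at these levels, so the lack of replicate libraries limits the comparison.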

Other observations

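Genes of cross-presentation, by which macrophages load class I with peptides of material they take up, showed no 2-fold difference. Of 13 measured, 9 were below 0 as deposited and 4 under housekeeping scaling, with a median log2 ratio of -0.05. Ctss, the endosomal protease cathepsin S, was at 3205 FPKM (WT) against 2770 FPKM (KO), and Cybb, the NADPH oxidase subunit that limits acidification of phagosomes, at 456 and 425 FPKM. Wdfy4, which is required for cross-presentation in dendritic cells, was at 92.4 and 68.4 FPKM (-0.43), and Sec61g, a subunit of the ER translocon, at 31.7 and 22.4 FPKM (-0.48).

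A list of 8 receptors held some that bind class I and some relatives that do not. Of these 8, 5 were measured, with 3 above and 2 below 0, and Klrd1, Cd8a and Cd8b1 were under the floor of 1 FPKM. Klrc1, which encodes NKG2A, the receptor of the H2-T23 product, passed the 2-fold rule at 3.45 FPKM (WT) against 10.6 FPKM (KO), while its partner Klrd1 (CD94) was at 0.43 and 0.19 FPKM. Pirb, an inhibitory receptor of myeloid cells for class I, was at 144 and 189 FPKM (0.39), and Lilrb4a, a related receptor not known for class I binding, at 16.9 and 27.4 FPKM (0.67). Klrk1, which encodes NKG2D, a receptor of stress-induced class I-like ligands, was at 100.5 and 96.7 FPKM, while the NK cell marker Ncr1 was at 0.11 and 0.42 FPKM.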
